A study of Rattus norvegicus with 10 samples.

Results

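The *Nr4a*, *Egr*, *Ier* and *Klf* genes described here are 10 transcription factor and regulator genes of the early response, listed by name: *Nr4a1*, *Nr4a2*, *Nr4a3*, *Egr1*, *Egr2*, *Egr3*, *Ier2*, *Ier3*, *Klf2* and *Klf6*. They were listed by gene family, with earlier results of these data known. Of these, 9 were among the 9003 genes of the table, and *Egr3* was not analysed here. To examine how they behaved in splenic M2 macrophages, RNA-seq libraries of 4 groups were compared. Control macrophages (n = 2) came from WKY /Ncrj rats under physiological conditions. GN macrophages (n = 2) came from rats of the same strain with glomerulonephritis, raised by a mouse monoclonal antibody (TF78) against the glomerular basement membrane, and given no stem cells. EV+ (n = 3) and EV- (n = 3) macrophages came from nephritic rats that had received human adipose-derived mesenchymal stem cells (ASCs) labeled with the membrane dye DiD. The sort on the dye separated macrophages with dye, called EV+, from those without, called EV-. The authors read the dye mostly as ASC membrane transferred in extracellular vesicles (EVs), and in a small number of leukocytes as engulfed ASCs. The EV+ and EV- groups therefore share the disease and the ASC injection, and differ in the dye. The nephritis model used female rats of 7 to 12 weeks, and all cells were sorted from digested spleen. The replicates are described as biological, but how many animals each library holds, and the day of sampling for RNA-seq, are not given in the sources used here.

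Early-response genes are switched on within minutes of a stimulus, without new protein synthesis, and their short-lived transcripts fade soon after. Signals through the ERK pathway reach many of them by serum response factor (SRF), which binds the CArG box, and signals through cyclic AMP by CREB, which binds the cAMP response element (CRE). In macrophages, members of these families restrain or shape inflammatory gene expression, as NR4A1 and KLF2 are known to do.

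Library depth was 19270515 to 26617093 reads on the genes of the table, and the lowest count of any member in any library was 6 reads, for *Egr2*. Of 14 macrophage markers, 12 were in the table, with *Lyz2*, *Csf1r*, *Cd68* and *Adgre1* at 1025 CPM or more in all 10 libraries. CPM is the read count scaled to library size, with TMM factors between libraries. The M2 markers *Cd163* and *Mrc1* were at most 1.81 CPM and at 0 in some libraries, so the M2 label rests on the sort and not on these transcripts. Markers of NK and T cells (9 of 11 in the table) summed to 18.5 to 38.6 CPM in the control, GN and EV+ libraries and to 51.9 to 688.7 CPM in the EV- libraries, with EV- 1 the highest. *Cd3e*, the T cell receptor component, stayed at or under 2.09 CPM. B cell markers (4 of 6) summed to 318.7 to 461.4 CPM, neutrophil markers (6 of 7) to 549.8 to 743.7 CPM and erythroid markers (2 of 9) to 1.19 to 7.26 CPM, and no platelet marker of 4 was in the table. In these bulk samples, a change in the number of cells of a type cannot be told apart from a change in RNA per cell. Nor can levels set in the rat be told apart from levels set while the spleen was digested and the cells sorted. Whether the groups were handled together is not given in the sources used here.

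To show what sequence lies at the start of these genes, RefSeq promoter windows of the GRCr8 assembly were read for the 250 bases before each annotated start. A window was found for 6 of the 9 members: *Nr4a1*, *Nr4a2*, *Egr1*, *Egr2*, *Ier2* and *Klf6*. The windows of *Egr2*, *Ier2* and *Nr4a1* are printed because they hold, in turn, a CArG box beside a CRE core, a full CRE, and repeated CRE cores. They lie at chr20:21054442-21054691 on the minus strand, chr19:40399123-40399372 on the plus strand and chr7:134259888-134260137 on the plus strand. Capitals mark CArG boxes and CRE cores (TGACG on either strand, so CGTCA where it lies on the other strand), and the last base printed is the base before the start.
Egr2: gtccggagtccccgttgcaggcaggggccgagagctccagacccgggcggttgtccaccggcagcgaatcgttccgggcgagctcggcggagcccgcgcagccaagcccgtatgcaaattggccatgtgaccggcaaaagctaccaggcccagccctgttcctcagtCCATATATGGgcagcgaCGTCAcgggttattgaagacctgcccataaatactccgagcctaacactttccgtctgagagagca
Ier2: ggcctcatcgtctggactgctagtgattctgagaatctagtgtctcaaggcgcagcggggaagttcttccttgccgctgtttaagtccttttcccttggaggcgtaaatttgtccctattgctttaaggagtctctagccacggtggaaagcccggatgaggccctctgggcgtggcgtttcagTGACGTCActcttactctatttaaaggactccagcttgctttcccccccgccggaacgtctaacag
Nr4a1: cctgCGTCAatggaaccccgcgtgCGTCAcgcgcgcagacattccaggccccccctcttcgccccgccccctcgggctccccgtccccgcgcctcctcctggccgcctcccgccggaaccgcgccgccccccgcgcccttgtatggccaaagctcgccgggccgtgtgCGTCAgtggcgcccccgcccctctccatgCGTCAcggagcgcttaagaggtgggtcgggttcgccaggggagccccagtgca

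A CArG box was found in 1.5% of all 33469 RefSeq windows of this length. Among the members, it occurred in *Egr1* at -105 to -96 and at -83 to -74 from the start, in *Egr2* at -83 to -74 and in *Klf6* at -201 to -192. *Egr1* and *Egr2* thus carried a CArG box at the same distance from their starts, and both had a CRE core at -66 to -62. The full CRE, TGACGTCA, was in 1.59% of windows and in *Ier2*, at -66 to -59. Its 2 CRE cores overlap within that site. The CRE core TGACG alone was common, in 18.2% of windows. *Nr4a1* held 4 copies, at -246, -226, -82 and -53 counted to the first base of each, *Egr1* held 2 and *Nr4a2* held 1, at -8 to -4. An EGR site of the form GCGGGGGCG, found in 2.45% of windows, lay in *Nr4a1* at -73 to -65 and overlapped a GC box (GGGCGG, 30.5% of windows) at -68 to -63. GC boxes were also present in *Egr2* and *Klf6*. An NF-kB pattern, GGGA and CCC parted by any 3 bases and found in 4.75% of windows, lay in *Egr1* at -126 to -117. The other letters searched on both strands, GCGTGGGCG (0.478% of windows), TGANTCA of AP-1 (6.34%), TATAAA (12.9%) and AAAGGTCA of NR4A proteins (1.24%), did not occur in the 6 windows. These matches describe letters in a window and do not show that a factor binds.

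**Figure D1:**
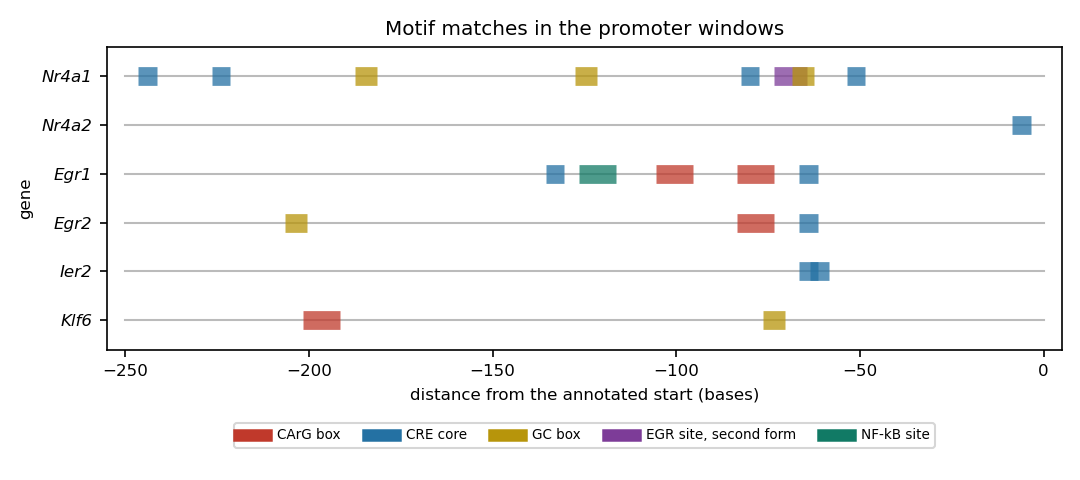
Positions of motif matches (colored blocks) in the 250 bases before the annotated start of the 6 members with a RefSeq window, with distance from the start in bases on the x axis. *Egr1* and *Egr2* have a CArG box at -83 to -74 and a CRE core at -66 to -62, and *Nr4a1* has 4 CRE cores.

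For 8 of 9 members, the group means were ordered with control highest, GN next and the EV groups lowest. The group mean was lower in GN than in control for 8 of 9 members, and lower in both EV+ and EV- than in GN for 9 of 9. *Nr4a2* was the exception, with like means in control and GN. In the test among the 4 groups at a false discovery rate (FDR) under 0.1, 6 of 9 members passed (*Nr4a3*, *Egr1*, *Egr2*, *Ier2*, *Ier3* and *Klf2*), beside 2.57% of all genes. *Nr4a1*, *Nr4a2* and *Klf6* did not pass. Without control 1, 3 members passed (*Egr1*, *Ier2* and *Klf2*), beside 1.36% of all genes. All 9 members were higher in control 1 than in control 2, which sets the spread of the control group. Values of different genes are not compared with each other here, because the table gives no gene lengths.

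**Figure D2:**
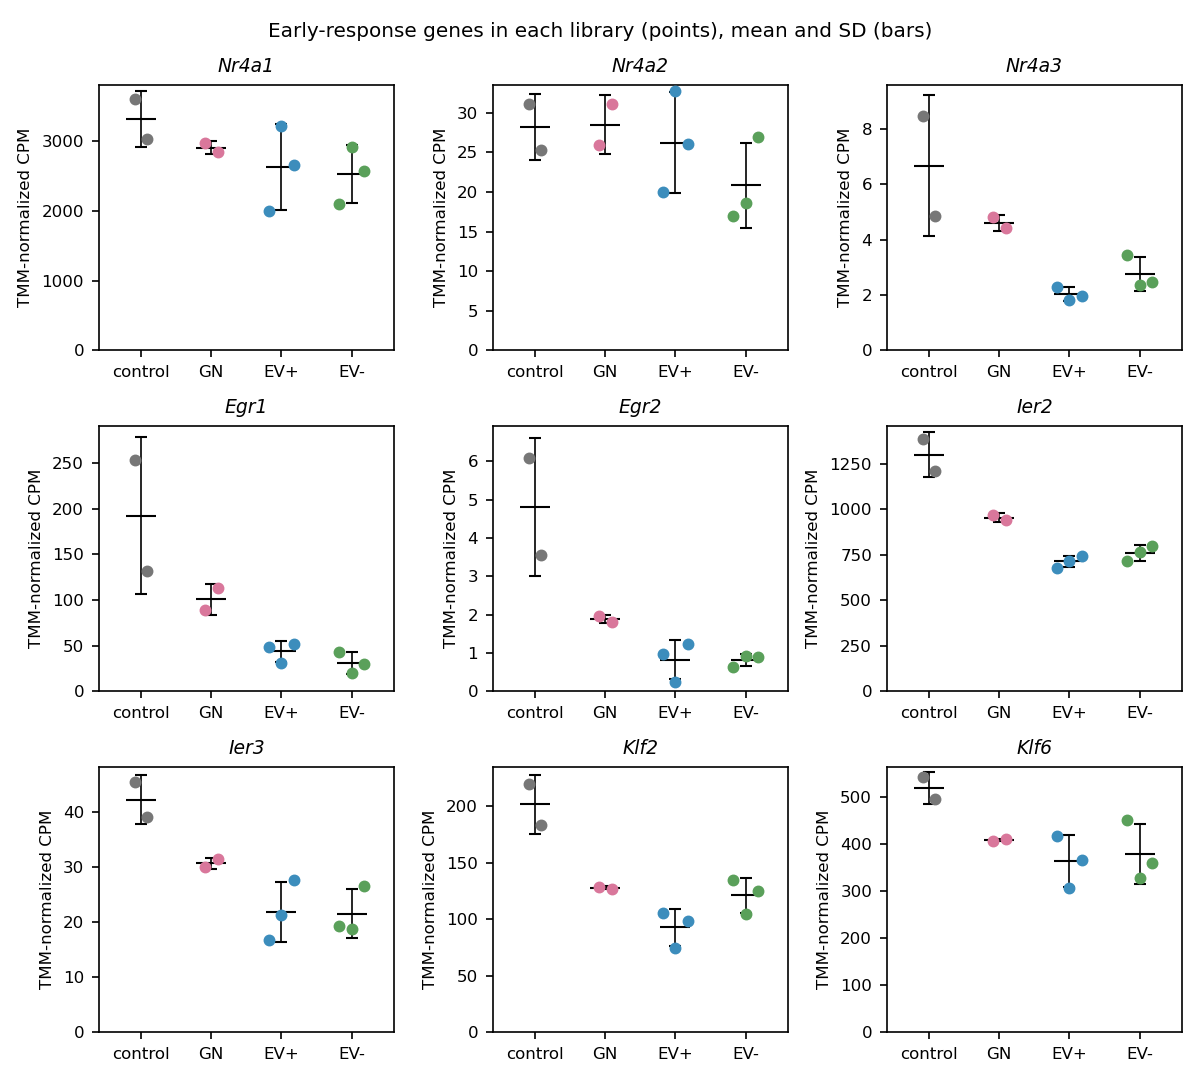
TMM-normalized CPM (y axis, linear from 0) of the 9 members in each library (points) of the control, GN, EV+ and EV- groups, with the mean and SD (black bars). *Nr4a3*, *Egr1*, *Egr2*, *Ier2* and *Ier3* have no overlap between control, GN and the EV libraries, whereas the groups overlap for *Nr4a2*.

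*Egr1*, a zinc finger factor induced by ERK and SRF, was lower in both EV groups than in control. The level of *Egr1* was 253.1 and 131.7 CPM in the control libraries, 88.7 and 113.1 CPM in the GN libraries, 48.8, 31.2 and 52.1 CPM in the EV+ libraries and 43.4, 20.4 and 29.5 CPM in the EV- libraries. The 3 levels, control, GN and EV, did not overlap, while EV+ and EV- did. GN means stood at 52.4% of control, EV+ at 22.9% and EV- at 16.2%. On the log2(CPM + 1) scale used for all fold changes below, which understates the changes of genes near 1 CPM, *Egr1* fell in EV+ (-2.06, SE 0.30, adjusted p = 0.00163) and in EV- (-2.58, SE 0.30, adjusted p = 0.000267) against control. The step from control to GN was -0.86 (SE 0.33, adjusted p = 0.337) and did not pass.

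*Egr2*, a relative with the same kind of DNA-binding domain and known roles in macrophage and T cell regulation, was a low transcript with the same shape. The level of *Egr2* was 6.09 and 3.55 CPM in the control libraries and 1.97 and 1.81 CPM in the GN libraries. In the EV libraries it was at 0.977, 0.253 and 1.25 CPM (EV+) and 0.632, 0.917 and 0.895 CPM (EV-), which corresponds to 6 to 28 reads. Control, GN and EV libraries did not overlap. *Egr2* fell in EV+ (-1.68, SE 0.30, adjusted p = 0.00794) and in EV- (-1.65, SE 0.30, adjusted p = 0.0125) against control, whereas GN against control was -0.97 (SE 0.33, adjusted p = 0.255).

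*Ier2*, the immediate early response gene whose window holds the full CRE, had the smallest SE of the 9 members in every comparison. The level of *Ier2* was 1386 and 1211 CPM in the control libraries, 971 and 938.7 CPM in the GN libraries, 679.4, 718.2 and 743.5 CPM in the EV+ libraries and 716.5, 764.4 and 800.2 CPM in the EV- libraries. Every GN library lay under every control library, and every EV library lay under both GN libraries. *Ier2* fell in GN (-0.44, SE 0.09, adjusted p = 0.0231), in EV+ (-0.86, SE 0.08, adjusted p = 3.555e-05) and in EV- (-0.77, SE 0.08, adjusted p = 9.506e-05) against control.

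*Ier3*, an early-response gene linked to cell survival and stress, followed the same order. The level of *Ier3* was 45.3 and 39.0 CPM in the control libraries, 29.9 and 31.3 CPM in the GN libraries, 16.8, 21.3 and 27.6 CPM in the EV+ libraries and 19.2, 18.7 and 26.6 CPM in the EV- libraries. The EV libraries lay under both GN libraries, although EV+ 3 and EV- 3 came close to them. *Ier3* fell in EV+ (-0.94, SE 0.19, adjusted p = 0.0180) and in EV- (-0.95, SE 0.19, adjusted p = 0.0214) against control, and GN against control was -0.45 (SE 0.21, adjusted p = 0.484).

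*Klf2*, a zinc finger factor that restrains inflammatory activation of endothelial cells and monocytes and controls T cell traffic, dropped already in GN. The level of *Klf2* was 220 and 183.3 CPM in the control libraries, 128.9 and 126.9 CPM in the GN libraries, 105.7, 74.3 and 98.8 CPM in the EV+ libraries and 134.8, 104.5 and 124.8 CPM in the EV- libraries. The EV+ libraries lay under both GN libraries, whereas the EV- libraries lay on both sides of them. *Klf2* fell in GN (-0.65, SE 0.16, adjusted p = 0.0743), in EV+ (-1.12, SE 0.14, adjusted p = 0.000538) and in EV- (-0.73, SE 0.14, adjusted p = 0.0181) against control.

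*Klf6*, a more widely expressed factor of the same family, had smaller fold changes than *Klf2*. The level of *Klf6* was 542.6 and 495.7 CPM in the control libraries, 406.5 and 410.1 CPM in the GN libraries, 417.3, 307.1 and 366.5 CPM in the EV+ libraries and 450.9, 328.9 and 359.3 CPM in the EV- libraries. Every other library lay under the control libraries, but GN and EV overlapped. *Klf6* fell in EV+ (-0.52, SE 0.13, adjusted p = 0.0577), and EV- against control was -0.46 (SE 0.13, adjusted p = 0.109). The EV+ call was lost without the intensity trend (adjusted p = 0.197), with only the groups compared (adjusted p = 0.122), and without control 1, control 2, EV+ 2 or EV+ 3 (adjusted p = 0.129 to 0.276).

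The *Nr4a* genes encode orphan nuclear receptors that act without a known hormone. *Nr4a3* was low and fell with the *Egr* genes. The level of *Nr4a3* was 8.47 and 4.87 CPM in the control libraries, 4.81 and 4.41 CPM in the GN libraries, 2.30, 1.81 and 1.96 CPM in the EV+ libraries and 3.45, 2.35 and 2.45 CPM in the EV- libraries. Control 2 was close to GN 1, and all EV libraries lay under GN. *Nr4a3* fell in EV+ (-1.30, SE 0.25, adjusted p = 0.0118) and in EV- (-1.004, SE 0.25, adjusted p = 0.0619) against control. The EV- call was lost with only the groups compared (adjusted p = 0.139) and without control 1, EV- 2 or EV- 3 (adjusted p = 0.146 to 0.418), and the EV+ call without control 1 (adjusted p = 0.173).

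*Nr4a1*, the best-studied receptor of the family in macrophages, did not pass in any comparison. The level of *Nr4a1* was 3609 and 3033 CPM in the control libraries, 2975 and 2845 CPM in the GN libraries, 2003, 3226 and 2659 CPM in the EV+ libraries and 2094, 2921 and 2577 CPM in the EV- libraries. EV+ 2 lay above control 2, so that EV+ overlapped both GN and control. Against control, EV+ was -0.36 (SE 0.17, adjusted p = 0.329) and EV- was -0.40 (SE 0.17, adjusted p = 0.311).

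*Nr4a2* showed no separation of the groups. The level of *Nr4a2* was 31.2 and 25.3 CPM in the control libraries, 25.9 and 31.1 CPM in the GN libraries, 20.0, 32.7 and 26.0 CPM in the EV+ libraries and 17.0, 18.6 and 27.0 CPM in the EV- libraries. Its log2 fold change was 0.01 in GN (95% interval -0.48 to 0.51) and -0.12 in EV+ (SE 0.21, adjusted p = 0.858) against control, and its direction in these 2 comparisons turned when certain libraries were left out. In EV-, at 74.0% of the control mean, it was -0.44 (SE 0.21, adjusted p = 0.404). The interval in GN does not exclude changes of the size seen in *Ier2*.

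To ask what nephritis changed, GN was set against control. Of 9 members, 2 fell (*Ier2* and *Klf2*), 0 rose and 7 did not pass, where 0.822% of all genes fell. The median log2 fold change was -0.44 over the members and about 0 (-0.000138) over all genes. In 8 of 9 members both GN libraries lay under both control libraries, which held for 22% of all genes. Control and GN hold 2 libraries each, so a fit without 1 of them leaves a group of 1 and a wider error. With each library left out in turn, the log2 fold change ran from -0.54 to -0.34 for *Ier2* and from -0.78 to -0.52 for *Klf2*. Without EV+ 3, only *Ier2* passed. Without the intensity trend, neither *Ier2* (adjusted p = 0.170) nor *Klf2* (adjusted p = 0.257) passed.

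Against control, 7 of 9 members fell in EV+ (all but *Nr4a1* and *Nr4a2*) and 6 of 9 fell in EV- (the same genes without *Klf6*). The background was 1.81% of genes that fell in EV+ and 1.56% in EV-. The median of the members was -0.94 in EV+ and -0.77 in EV-, beside medians of all genes of -0.000126 and 0.00701. Both comparisons use the same 2 control libraries. Without control 1, 3 members fell in EV+ (*Egr1*, *Ier2* and *Klf2*), where 0.744% of all genes fell, and 2 in EV- (*Egr1* and *Ier2*), where 0.544% did.

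**Figure D3:**
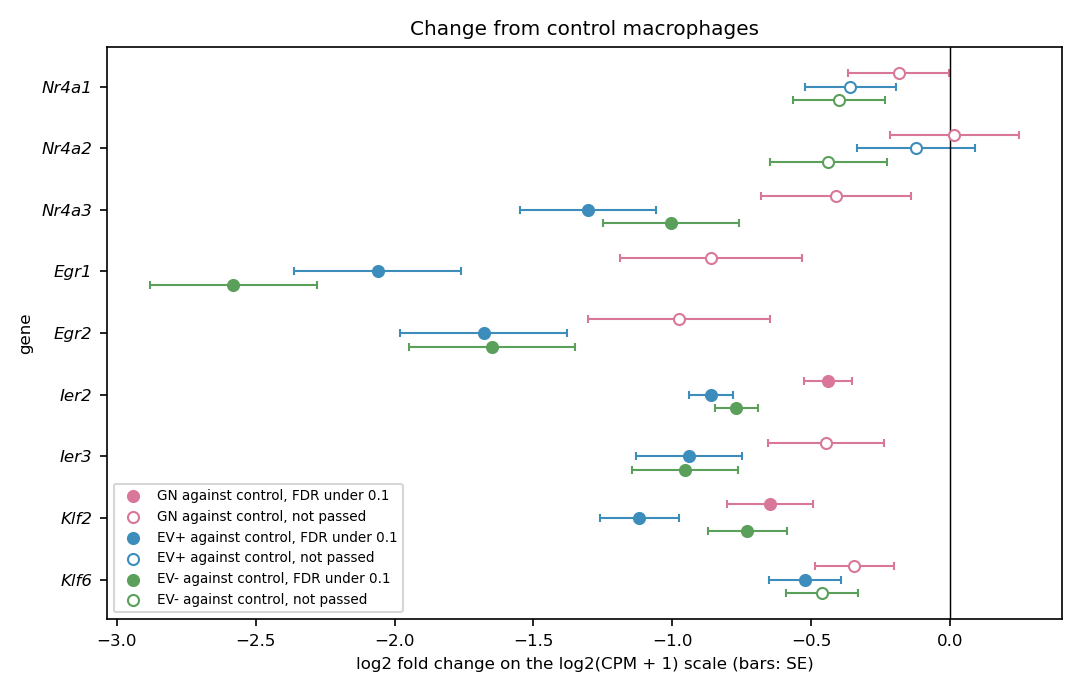
Log2 fold change against control (x axis, log2(CPM + 1) scale) of the 9 members in GN, EV+ and EV-, with SE bars and filled points at an FDR under 0.1. All 18 EV points lie under 0, and *Egr1* reaches -2.06 in EV+ and -2.58 in EV-.

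To set nephritic rats given ASCs beside those given none, EV+ and EV- were each compared with GN, with the GN libraries shared by both. The EV+ and EV- cells were chosen by the dye and the GN cells were not. The ASC injection and the sort on the dye cannot be told apart in these comparisons. In EV+, 1 of 9 members fell, *Ier2* (-0.42, SE 0.08, adjusted p = 0.0920), where 0.0555% of all genes fell. *Ier2* lost the call in edgeR's quasi-likelihood test and when GN 1, GN 2, any EV+ library or EV- 3 was left out. In EV-, 1 of 9 members fell, *Egr1* (-1.72, SE 0.30, adjusted p = 0.0299), where 0.322% of all genes fell, and it lost the call without either GN library. *Egr1* in EV+ was -1.20 (SE 0.30, adjusted p = 0.328), and *Ier2* in EV- was -0.33 (SE 0.08, adjusted p = 0.160). The medians of the members were -0.47 in EV+ and -0.45 in EV-, beside -0.01 and 0.000606 over all genes. All EV+ libraries lay under both GN libraries for 6 of 9 members (11.8% of all genes), and all EV- libraries did so for 5 of 9 (12.8% of all genes). The members with no overlap were the same but for *Klf2*.

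The direct comparison of EV+ with EV- sets macrophages with and without ASC dye side by side, both from nephritic rats given ASCs. The sort can also separate cells by their uptake of membrane, which cannot be told apart from the vesicles here. In limma's fit of all libraries 0 of 9 members passed, and 0% of all genes fell in EV+. At an unadjusted p under 0.05 there was 1 of 9 members, *Klf2*, beside 411 of all 9003 genes. The median log2 difference of the members was -0.03, beside -0.01 over all genes, and 5 of 9 members were lower in EV+ on that scale. EV+ and EV- did not overlap, with EV+ lower, for 1 of 9 members, *Nr4a3*, as for 4.65% of all genes. The edgeR and DESeq2 tests also called 0 members.

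Same-numbered EV+ and EV- libraries deviated together to a small degree across all genes (r of 0.122 to 0.295). The 6 EV libraries were therefore also fitted with the number as a block, a pairing and an alternative both taken from these same data. There, 1 of 9 members passed, *Klf2*, beside 0.544% of all genes. *Klf2* was lower in EV+ in each of the 3 pairs, with log2 differences of -0.35, -0.49 and -0.33. Its mean difference was -0.39, with SE 0.06 and adjusted p = 0.0252 with the block, and with SE 0.13 and adjusted p = 0.934 in the fit of all libraries. *Klf2* is also a gene of resting T cells, and the NK and T cell markers in sum were higher in each EV- library than in any EV+ library. Not every single marker was: *Lck* was at 2.30 CPM in EV- 3 but 2.46 and 2.48 CPM in EV+ 1 and EV+ 2, and *Klrd1* at 1.87 CPM in EV- 3 but 1.99 CPM in EV+ 1. In EV- 1 the highest marker was *Prf1*, at 334.5 CPM, while *Cd3e* was at 2.09 CPM. The summed markers were 688.7, 100.3 and 51.9 CPM in EV- 1, EV- 2 and EV- 3. Of these markers, 9 of 9 had an unadjusted p under 0.05 in EV+ against EV- in limma, beside 411 of all 9003 genes. The part of these markers in the *Klf2* difference was not tested. Without EV- 1, which leaves EV+ 1 with no partner, *Klf2* differed by -0.41 (SE 0.08, adjusted p = 0.0823).

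*Egr1* was higher in EV+ in each of the 3 pairs, by 0.16, 0.59 and 0.80, a direction opposite to that of *Klf2*. With the block it did not pass (0.52, SE 0.12, adjusted p = 0.165), and without EV- 1 it did (0.70, SE 0.12, adjusted p = 0.0666), when 2 members passed beside 0.367% of all genes. In the fit without EV- 1, EV+ 1 had no partner, so the difference came from the pairs numbered 2 and 3 alone. Its SE then rested mainly on the spread that limma pools over genes. *Ier2* differed by -0.08, -0.09 and -0.11 and *Nr4a3* by -0.43, -0.25 and -0.22 in the pairs, neither of which passed. *Nr4a1*, *Nr4a2*, *Egr2*, *Ier3* and *Klf6* differed in both directions among the pairs. The 95% intervals of the difference in the fit of all libraries bound what could have been missed. They ran from -0.24 to 0.06 for *Ier2*, from -0.28 to 0.36 for *Nr4a1*, from -0.31 to 0.19 for *Klf6* and from -0.06 to 1.09 for *Egr1*. For *Egr2* the interval was -0.61 to 0.55, for *Nr4a3* -0.77 to 0.17, for *Nr4a2* -0.09 to 0.72 and for *Ier3* -0.35 to 0.38. That of *Klf2*, -0.66 to -0.12, left out 0, but the intervals are not adjusted for the number of genes.

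**Figure D4:**
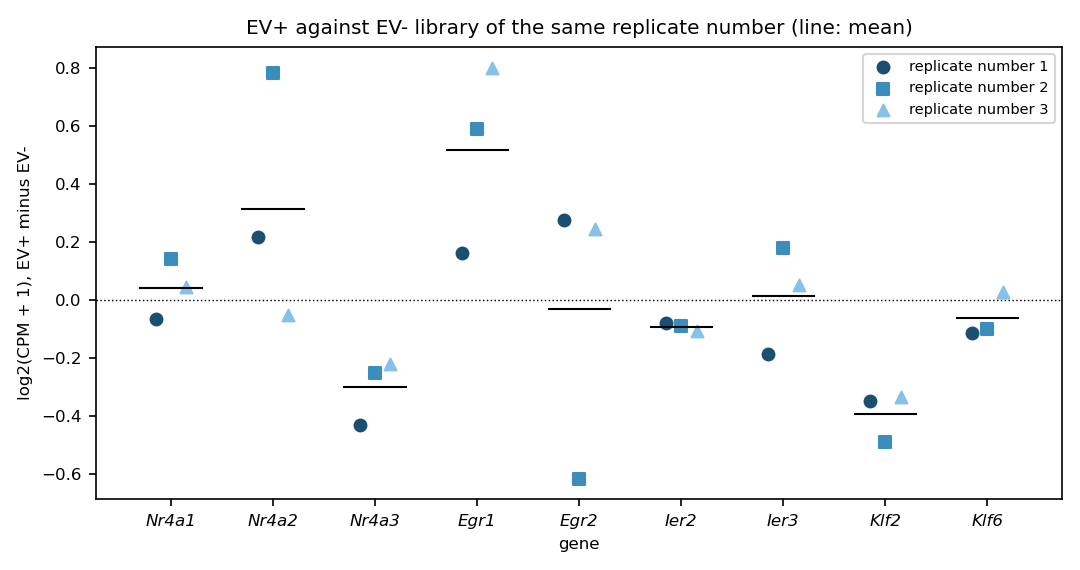
Difference of log2(CPM + 1) between the EV+ and the EV- library of the same replicate number (points) for the 9 members, with the mean of the 3 (line). *Klf2*, *Nr4a3* and *Ier2* lie under 0 and *Egr1* lies above 0 in all 3 pairs.

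Within the EV groups, the order of the replicates differed between members. For 5 of 9 members (*Nr4a1*, *Nr4a3*, *Ier2*, *Klf2* and *Klf6*) the replicates stood in the same order in EV+ and in EV-. *Nr4a1* was highest in library 2 and lowest in library 1 of both groups, whereas *Klf2* and *Klf6* were highest in library 1 and lowest in library 2. Over all 10 libraries, Pearson's r of each member with the mean of the others was 0.98 for *Ier2*, 0.94 for *Egr2*, 0.93 for *Ier3*, 0.91 for *Egr1*, 0.90 for *Nr4a3*, 0.82 for *Klf2* and 0.71 for *Klf6*. It was 0.56 for *Nr4a1* and 0.42 for *Nr4a2*, the *Nr4a* genes that passed no test. These values describe 10 libraries that share their groups and have no test.

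Among relatives of the members, those of the *Ier* family fell. Of 18 listed *Egr*, *Ier* and *Klf* relatives, 10 were in the table. *Ier5* fell in GN (-0.48, adjusted p = 0.0179), in EV+ (-0.77, adjusted p = 0.000104) and in EV- (-0.66, adjusted p = 0.000505) against control. *Ier5l*, a close relative, fell in EV+ (-0.79, adjusted p = 0.0172) and in EV- (-0.59, adjusted p = 0.0922). The other 8, all *Klf* genes such as *Klf4*, at 147.3 to 185.4 CPM, and *Klf10*, at 184.1 to 234.7 CPM, did not pass in any comparison. The median over the 10 relatives was -0.22 in GN, -0.17 in EV+ and -0.16 in EV- against control.

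No transcript of the listed factors upstream of these genes, or of their partners, passed. Of 31 listed kinases, SRF and CREB factors, coactivators, corepressors and nuclear receptor partners, 23 were in the table, and 0 passed in any of the 6 comparisons or among the 4 groups in limma. Between 1 and 4 of the 23 had an unadjusted p under 0.05 in each comparison, beside 411 to 1350 of all 9003 genes. Their medians against control were -0.04 in GN, 0.02 in EV+ and 0.07 in EV-. *Srf* was at 38.0 to 44.0 CPM in all libraries, *Creb1* at 14.4 to 18.8 CPM, and *Nab2*, a corepressor that EGR proteins induce, at 54.1 to 61.5 CPM. Activity of these proteins is set by phosphorylation and was not measured.

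Other early-response genes fell beside the members. Of 35 listed genes, 32 were in the table. Against control, 10 fell in GN, 19 in EV+ and 20 in EV-, and 0 rose. Their medians were -0.49, -0.81 and -0.91. Against GN, 4 fell in EV+ and 6 in EV-, with medians of -0.28 and -0.37. Between EV+ and EV- 0 of 32 passed, and 2 had an unadjusted p under 0.05, beside 411 of all 9003 genes. The genes outside the members whose pattern was most like their mean over the 10 libraries were *Atf3* (r = 0.978), *Ppp1r15a* (r = 0.977), *Dusp1* (r = 0.974), *Ccl3* (r = 0.967) and *Junb* (r = 0.962). *Dusp1*, the phosphatase that switches off MAP kinases, went from a mean of 7165 CPM in control to 5047 CPM in GN, 3267 CPM in EV+ and 3263 CPM in EV-. All but *Ccl3*, a chemokine, were among the listed early-response genes.

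Other gene groups moved with the members in part. The macrophage markers summed to 24600 to 24960 CPM in control and 28700 to 30780 CPM in the other libraries, the inverse of the members. Of 11 heat shock and chaperone genes, 3 fell in EV+ against control (*Hsp90aa1*, -1.16 with adjusted p = 0.0371, *Dnajb1*, -0.999 with adjusted p = 0.0463, and *Hspa1a*, -2.20 with adjusted p = 0.0666). In the other 5 comparisons in limma, 0 passed. There, 0 to 4 of the 11 had an unadjusted p under 0.05, beside 411 to 1183 of all 9003 genes. The level of *Hspa1a*, the inducible chaperone, was 565.6 and 618.7 CPM in the control libraries, 364.7 and 327.1 CPM in the GN libraries, 284.6, 98.8 and 73.9 CPM in the EV+ libraries and 524.6, 114.8 and 112.1 CPM in the EV- libraries. EV- 1 was the highest EV library for *Hspa1a*, near the control level. Within the EV- group, EV- 1 was also the highest library for *Nr4a3*, *Egr1*, *Klf2* and *Klf6*, the lowest for *Nr4a1*, *Nr4a2*, *Egr2* and *Ier2*, and in the middle for *Ier3*. The part of macrophage content and of heat shock in the members' changes was not tested.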

How the data were processed

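RNA-seq of splenic M2 macrophages of WKY /Ncrj rats comprised 10 libraries in 4 groups taken from the sample labels. Per the study's methods and the submitters' processing notes, libraries were made with SMART-Seq v4 and Nextera XT and sequenced in pairs, and reads were aligned with STAR (version 2.5.3) to rn6 and counted with HTSeq (version 0.6.0). The authors deposited a normalized signal, TMM-normalized CPM from edgeR, after removing genes whose CPM stayed under 1 in all samples. The smallest row maximum was 1.01 CPM. All values (100%) were whole multiples of the worth of 1 read within a tolerance of 0.05 reads, so reads were recovered, and TMM-normalized CPM recomputed from them differed by at most 4e-05. Of the symbols, 18 had been turned into dates. Depth was 19270515 to 26617093 reads, and read counts cover counting error only.

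The main test was limma (version 3.58.1, R version 4.3.3) on log2(CPM + 1) with an intensity trend, the 4 groups and 6 residual degrees of freedom, with Benjamini-Hochberg adjustment over the 9003 genes and calls at an FDR under 0.1. The F test compared the 4 groups. Fits were tested on simulated data. Replicates differed (chi-square per degree of freedom of 13.3 to 45.0), so no library was a copy. Same-numbered EV+ and EV- libraries correlated in their deviations from the group means at 0.203, 0.295 and 0.122, and all other EV+ and EV- pairs were under 0. Deviations within a group sum to 0, so the values under 0 follow in part from those above 0 and are no separate evidence. The same-numbered libraries were treated as pairs on the data alone, since neither labels nor methods state a pairing. For control and GN the value was 0.088, from 2 pairs, and the unlike pairs were at -0.088 by construction.

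Alternatives were edgeR (version 4.0.16) and DESeq2 (version 1.42.0) on recovered reads, pseudocounts of 0.1 and 0.5, no trend, RLE size factors, at least 1 CPM in at least 2 libraries (8713 genes), an FDR under 0.05, the replicate block, only the groups compared, and each library left out. Fits chosen later, with the data in view, were those of the EV libraries with the replicate block, with and without EV- 1. They have fewer residual degrees of freedom than the main fit, and the fit without EV- 1 leaves EV+ 1 unpaired. Promoter windows came from RefSeq (GRCr8), a different build from rn6, and no coordinates of the authors' build are given. The members and gene lists were chosen with earlier results of these data known. All members present are named. Genes of other lists are named where they passed, at most 4 per list and comparison by the smallest adjusted p, and the 5 genes most like the members have the highest r among genes with a mean of at least 5 CPM. *Klf4*, *Klf10*, *Srf*, *Creb1* and *Nab2* were named after their values were seen. A short list of genes downstream of KLF2 is not reported here.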

Additional observations from a re-analysis of the deposited data

How the results depend on the processing

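The number of members called moved by over 1.5 times as follows. For GN against control (2 in the main test) it was 0 without the intensity trend and 1 at an FDR under 0.05. For EV+ against GN (1) it was 0 in edgeR's quasi-likelihood test, without the trend, at an FDR under 0.05 and with only the groups compared, and 2 in edgeR's likelihood-ratio test and with the replicate block. For EV- against GN (1) it was 0 without the trend, 2 in the likelihood-ratio test and in DESeq2, and 3 with the replicate block. For EV+ against EV- (0) it was 1 in the fit of the 6 EV libraries with the replicate block and 2 in that fit without EV- 1. The block gained the calls of *Klf6* in EV- against control (adjusted p = 0.0516) and among the 4 groups, *Egr1* in EV+ against GN (adjusted p = 0.0755), and *Ier2* (adjusted p = 0.0967) and *Ier3* (adjusted p = 0.0921) in EV- against GN, and changed no other call of a member in the fit of all libraries. Over all genes it called 30 in place of 11 for EV+ against GN and 53 in place of 34 for EV- against GN. The pairing of EV+ with EV- was taken from these same data, and a pairing of GN or control with the EV libraries is stated nowhere and was not tested. With each library left out in turn, the count was 0 to 2 for GN against control, 3 to 7 for EV+ against control, 2 to 7 for EV- against control, 0 to 1 for EV+ against GN, 0 to 1 for EV- against GN, 0 to 0 for EV+ against EV- and 3 to 7 among the 4 groups. The cause of these shifts was not tested, except that fewer libraries leave a wider error.

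Small changes turned in sign. *Egr2* in EV+ against EV- (-0.03) was 0.0161, 0.0161 and 0.0171 in edgeR's 2 tests and DESeq2. With a library left out, *Nr4a2* ran from -0.13 to 0.16 in GN against control, from -0.29 to 0.0535 in EV+ against control and from -0.30 to 0.0387 in EV+ against GN. *Nr4a1* ran from -0.33 to 0.00976 in EV+ against GN and *Klf2* from -0.16 to 0.0205 in EV- against GN. In EV+ against EV-, *Nr4a1* ran from -0.12 to 0.22, *Egr2* from -0.20 to 0.22, *Ier3* from -0.16 to 0.18 and *Klf6* from -0.17 to 0.0695. Over all members, comparisons and other alternatives, 580 values kept direction and call, 15 lost and 13 gained the call, and 3 turned. With a library left out, 491 kept both, 29 lost and 3 gained the call, and 17 turned. RLE size factors moved the median of all genes by -0.00336 to 0.000448 on the log2 scale. The 2 to 3 libraries per group limit what could be called.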
